A study of Mus musculus with 20 samples.

Results

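The genes described here are 39 interferon-stimulated and RNA-sensing genes, chosen by symbol through a rule that holds no measured value, though with earlier results of these data known, among 54838 genes counted in mouse ovaries. Each symbol matched 1 Ensembl gene in the count tables. The study asked what sets the ovary of a highly fertile mouse line apart, and measured 20 ovaries by 3' mRNA sequencing, in which a read marks the end of a transcript, so that a read number does not grow with transcript length. FL1 is the Dummerstorf high-fertility line, bred over many generations for female reproductive performance, and ctrl is its unselected control line, labelled WT in the genotype field. All animals were females aged 77 days. Ovaries of each line were taken in estrus or in diestrus, which gives 4 groups of 5 ovary libraries, each library from a different animal. Estrus is the stage around ovulation and diestrus the luteal stage of the cycle, read by the study from vaginal smears. Only 1 selected and 1 unselected line were compared, so selection and drift within a line cannot be told apart.

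Interferons are secreted signals that cells release on meeting a virus, or on meeting their own RNA and DNA in the wrong place. Cytosolic sensors such as Ddx58 (RIG-I) and Ifih1 (MDA5) detect RNA and, through Irf3 and Irf7, switch on the interferon genes. The secreted interferon then acts through its receptor and JAK kinases on a complex that includes Stat2 and Irf9 and binds the interferon-stimulated response element (ISRE) before its target genes, while the answer to interferon gamma runs through the gamma-activated site (GAS). The targets include the sensors themselves, and many tissues express these genes at a low level without infection.

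Promoter windows from the RefSeq table of GRCm38.p6, 250 bases before to 50 bases after a gene's start, were on hand for 30 of the 39 genes. The genes with no entry were Dhx58, Mx1, Mx2, Oas2, Parp14, Parp9, Rtp4, Usp18 and Zbp1. An ISRE core was searched as GAAA, any 2 bases and GAAA again, or TTTC, any 2 bases and TTTC on the other strand, and a GAS as TTCNNNGAA, which reads the same on both strands. The ISRE core was in a window of 15 of the 30 genes, against 3.99% of the 27025 genes in the table. The GAS was in 10 of the 30, against 9.55%. A match is a description of letters, and neither a bound site nor a cause. The windows of Trim25, Oasl2 and Ifi44 held neither motif in these letters.

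The 4 windows shown in full belong to genes whose level differed between lines or stages, and the capitals mark ISRE and GAS letters. Ddx58 is on the minus strand of chr4:40239776-40240075, Gbp2 on the plus strand of chr3:142620413-142620712, Bst2 on the minus strand of chr8:71537423-71537722 and Ifitm3 on the minus strand of chr7:141010695-141010994. In Bst2 the GAS runs into 2 overlapping ISRE cores, and in Ifitm3 the GAS overlaps the second of its 2 ISRE cores. The GENCODE annotation starts Gbp2 at 142620602, earlier than RefSeq does, so the Gbp2 match lies before the start in 1 annotation and after it in the other.
Ddx58: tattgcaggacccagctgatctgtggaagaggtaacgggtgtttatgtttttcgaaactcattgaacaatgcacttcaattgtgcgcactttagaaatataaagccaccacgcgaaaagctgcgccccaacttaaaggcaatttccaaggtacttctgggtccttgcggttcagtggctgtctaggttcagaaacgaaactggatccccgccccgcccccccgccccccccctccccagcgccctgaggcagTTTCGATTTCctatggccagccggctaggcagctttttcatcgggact
Gbp2: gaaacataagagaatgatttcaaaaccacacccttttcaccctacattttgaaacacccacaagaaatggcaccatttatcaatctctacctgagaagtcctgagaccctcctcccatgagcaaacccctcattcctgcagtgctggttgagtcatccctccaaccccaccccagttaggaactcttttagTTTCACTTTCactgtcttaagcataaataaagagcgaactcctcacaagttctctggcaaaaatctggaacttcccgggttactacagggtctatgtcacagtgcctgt
Bst2: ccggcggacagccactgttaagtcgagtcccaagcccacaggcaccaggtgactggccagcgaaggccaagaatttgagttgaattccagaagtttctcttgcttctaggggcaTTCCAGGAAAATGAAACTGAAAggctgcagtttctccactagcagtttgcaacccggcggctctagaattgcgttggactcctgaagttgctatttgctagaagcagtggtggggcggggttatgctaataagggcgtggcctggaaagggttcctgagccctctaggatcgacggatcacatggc
Ifitm3: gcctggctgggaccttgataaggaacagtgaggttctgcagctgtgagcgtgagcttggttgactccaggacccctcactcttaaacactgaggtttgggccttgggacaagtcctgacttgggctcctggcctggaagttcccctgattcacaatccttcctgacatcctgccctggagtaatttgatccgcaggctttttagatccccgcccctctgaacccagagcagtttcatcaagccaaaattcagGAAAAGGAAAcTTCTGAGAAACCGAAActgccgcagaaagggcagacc

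Stretches of 30 bases around the core are shown for members of different roles. Each is written on the strand that holds the GAAA pair, in capitals with the bases between. The search itself fixed the GAAA letters, so their likeness is not a result. Isg15 (chr4:156200871-156200900, minus strand), Ifit1 (chr19:34640794-34640823, minus strand), Ifit3 (chr19:34583397-34583426, minus strand) and Stat2 (chr10:128270266-128270295, minus strand) come from a modifier, 2 effectors and a transcription factor. Eif2ak2 (chr17:78882535-78882564, minus strand), Rsad2 (chr12:26456553-26456582, plus strand), Gbp3 (chr3:142559989-142560018, minus strand) and Gbp7 (chr3:142530273-142530302, minus strand) come from a sensor, an effector and 2 guanylate-binding proteins.
Isg15: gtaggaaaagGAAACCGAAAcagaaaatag
Ifit1: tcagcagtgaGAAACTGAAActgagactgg
Ifit3: gaggaaagtaGAAACTGAAAcagacttaaa
Stat2: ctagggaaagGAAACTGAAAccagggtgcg
Eif2ak2: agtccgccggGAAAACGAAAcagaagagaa
Rsad2: tctgttttctGAAAATGAAAgttggaccag
Gbp3: ctgggaaataGAAACTGAAActgtgtcctg
Gbp7: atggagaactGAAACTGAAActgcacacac

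**Figure D1:**
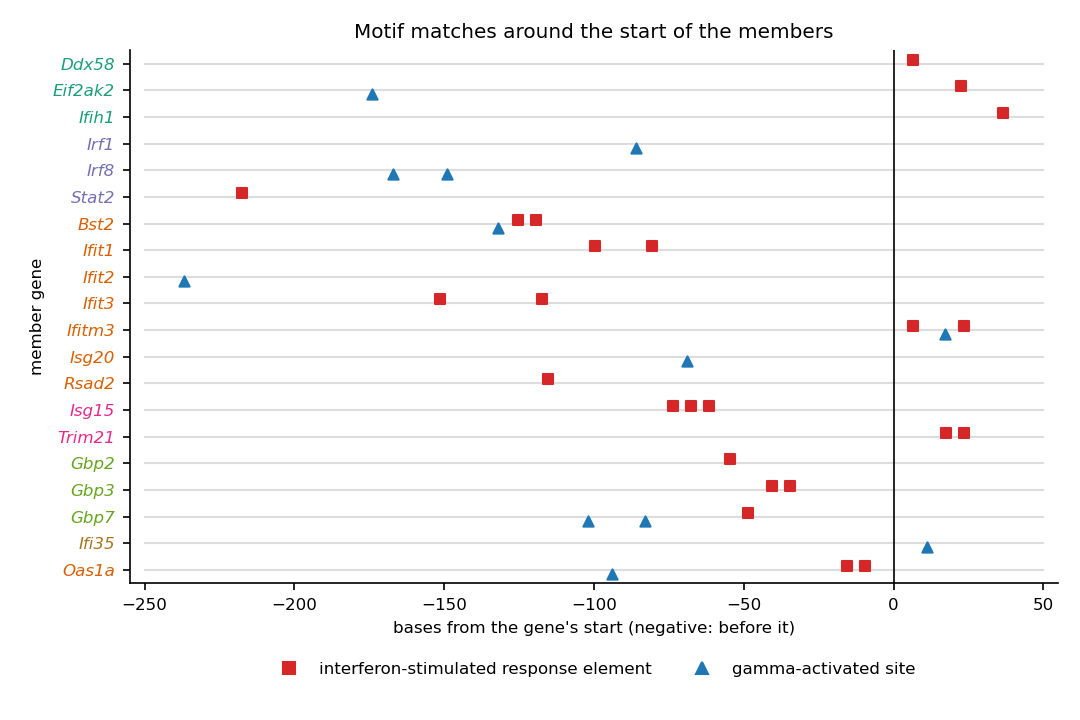
Position of each motif match (squares, ISRE core; triangles, GAS) from the RefSeq start of the 20 members that hold one, in bases on the horizontal axis. The ISRE cores of Ddx58, Eif2ak2, Ifih1, Ifitm3 and Trim21 lie after the start. Those of Bst2, Gbp2, Gbp3, Gbp7, Isg15, Ifit1, Ifit3, Oas1a, Rsad2 and Stat2 lie before it.

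Libraries held 5991223 to 10352718 counts, with a median of 6957533. Levels are CPM, the counts of a gene as a share of its library's counts, scaled by TMM factors over the 20 libraries, and n = 5 ovaries in every group. The library of ctrl estrus replicate 5 stood apart: it was the highest of its group for 29.3% of genes and the lowest for 31.4%, and its summed granulosa markers, at 1223 CPM, were the lowest of the 20 libraries. The results that it moves most are given with and without it. Ovarian markers were present in all groups, with summed luteal markers of 14926 to 48311 CPM and summed oocyte markers of 121 to 382 CPM, while 3 oviduct markers summed to at most 4.65 CPM. In whole ovaries, fewer cells of a type and less RNA per cell cannot be told apart.

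The members spanned a wide range of counts. Ifitm3, which hinders the entry of enveloped viruses, had the most, with a mean of 299 CPM over the 20 libraries. Bst2 (tetherin, which holds budding viruses at the cell surface) followed at 127 CPM, then Trim25 at 104 CPM, Gbp2 at 76.9 CPM, Irf1 at 59.5 CPM and Irf9 at 50.9 CPM. At the low end, Mx1, a dynamin-like antiviral GTPase, had 7 counts in all and none in 15 of 20 libraries, where 3 counts in 1 library would be 0.290 to 0.501 CPM. The other genes under 2 CPM were Oas1a at 0.443, Mx2 at 1.14, Oas2 at 1.48 and Oasl1 at 1.88 CPM. Levels are compared here as read numbers from transcript ends, not per length. Words of 31 bases from the last 300 bases of a member's transcripts were sought anywhere in other genes' transcripts. Mx1 shares 90 with Mx2, Gbp3 65 with Gbp7, Oas1a 129 with Oas1g and Xaf1 50 with Bcas2. The split of reads within these pairs is uncertain. Of the 39 members, 17 overlap another annotated gene, 5 on the same strand, as Irf9 with Rnf31, and 13 on the opposite strand, as Irf7 with Phrf1, Irf3 with Bcl2l12, Rtp4 with Masp1 and Dtx3l with Parp9. The strand setting of the counting is not given in the sources used here.

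In estrus, FL1 ovaries held less RNA of several genes of this list than ctrl ovaries and more of 1. Trim25, Ddx58, Ifi44 and Oasl2 were lower in FL1 and Gbp2 was higher. These were 5 of the 35 members tested, against 2.33% of all 13374 genes tested (1.26% lower and 1.07% higher). DESeq2 called 9 of 38, against 3.97% of genes, with Isg15, Dtx3l, Ifih1 and Rtp4 added, all lower in FL1. Oas1a, Oas2, Mx1 and Mx2 had too few counts for the test. The log2 fold change, FL1 minus ctrl, was below 0 in 27 of the 35, against 50.9% of all genes, with a median of -0.43 over the members and -0.01 over all genes. At an unadjusted p of at most 0.05 there were 14 lower and 2 higher members, against 8.3% of all genes lower and 15.9% in either direction. Groups did not overlap for 7 members lower in FL1 (Trim25, Ddx58, Ifi44, Oasl2, Ifih1, Stat2 and Dtx3l) and for Gbp2, against 4.89% of all genes in either direction, 2.41% lower in FL1 and 2.48% higher.

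In diestrus, the fold changes were mostly below 0 as well and no member was called. The log2 fold change was below 0 in 29 of 36 members, against 51.8% of all genes, with a median of -0.31, and 0 of 36 passed the threshold in edgeR, against 4.11% of 13259 genes. Without ctrl diestrus replicate 2 the fold change was below 0 in 24 of 36 members, with a median of -0.25. Without ctrl diestrus replicate 3 it was below 0 in 26, with a median of -0.17. Over all fits without 1 library this number ran from 24 to 32. At an unadjusted p of at most 0.05 there were 11 members, all of them lower in FL1, against 8.86% of all genes lower. DESeq2 called 3 of 38 members (Ifih1, Irf7 and Rtp4), against 5.33% of genes, and limma-voom 0, against 4.36%. No member had groups without overlap, against 5.45% of all genes. The 2 line comparisons share no library.

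**Figure D2:**
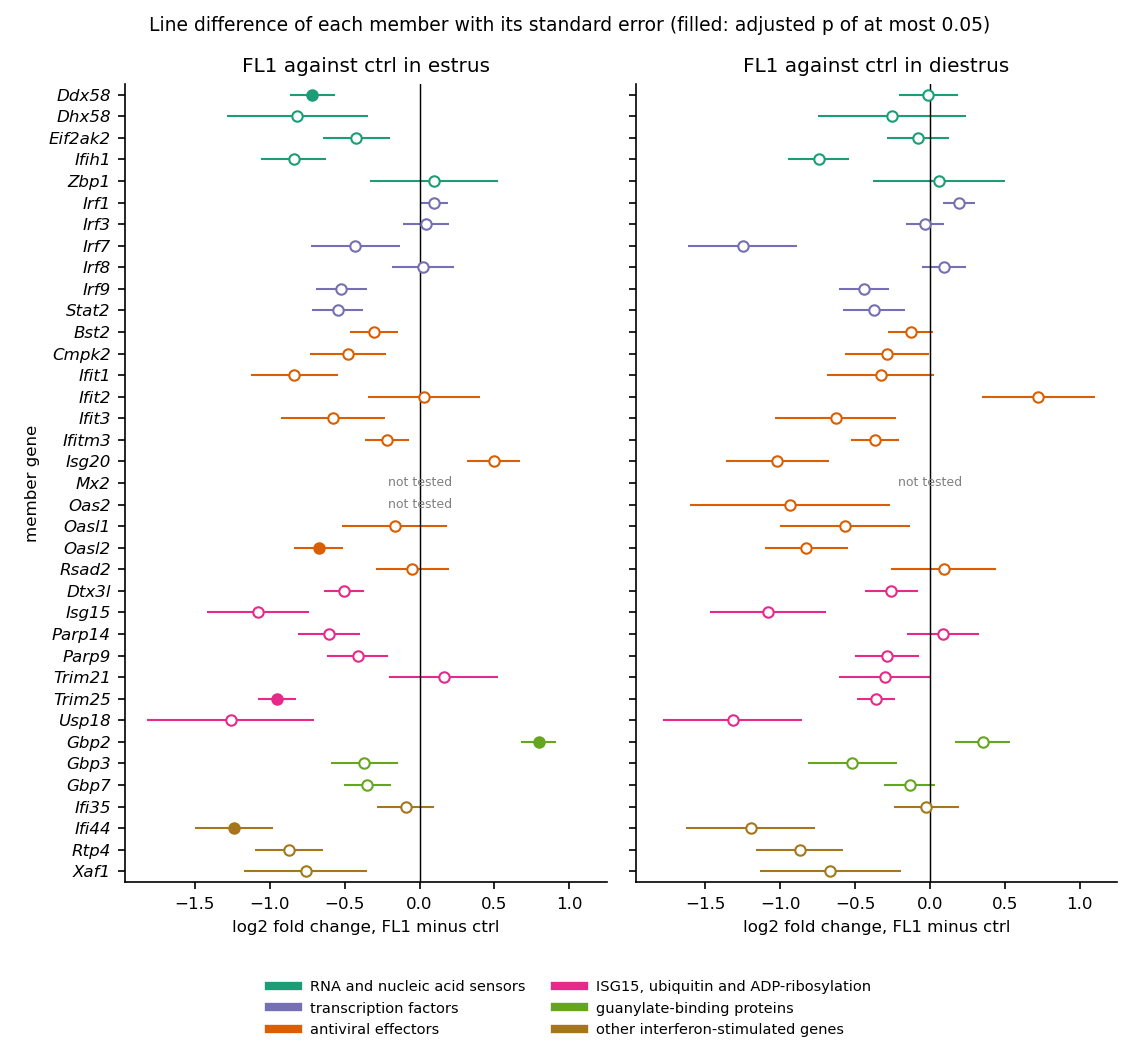
Log2 fold change, FL1 minus ctrl, of each member with its standard error (horizontal bars), in estrus on the left and diestrus on the right, coloured by role; filled points passed an adjusted p of at most 0.05 in edgeR. In estrus 27 of 35 points and in diestrus 29 of 36 lie left of 0, and Gbp2 lies right of it in both.

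The RNA sensors opened the list. Ddx58, at chr4:40203773-40239828 on the minus strand, encodes RIG-I, which detects RNA with a free triphosphate end. In estrus it was at 34.0, 37.2, 42.6, 32.8 and 50.6 CPM in ctrl replicates 1 to 5 and at 18.2, 24.7, 25.5, 27.7 and 23.8 CPM in FL1. Every FL1 ovary was below every ctrl ovary, and ctrl replicate 5 was the highest of the 10. The log2 fold change was -0.72 ± 0.15 (SE, edgeR adjusted p = 0.0243), with an exact permutation p of 0.00794, two-sided, the smallest that the splits of 5 against 5 allow. Without ctrl replicate 5 it was -0.61 (edgeR adjusted p = 0.0276). Leaving out ctrl replicate 3 or FL1 replicate 1, 2 or 5 moved the edgeR adjusted p to 0.0523, 0.0580, 0.0585 and 0.0624.

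In diestrus, Ddx58 was at 24.6, 40.2, 37.8, 16 and 28.6 CPM in ctrl and at 30.5, 31.8, 30.4, 27.2 and 26.3 CPM in FL1. The ctrl values lay on both sides of the FL1 values, and the log2 fold change was -0.01 ± 0.20 (SE, edgeR adjusted p = 0.985). Ifih1 (MDA5), which detects long double-stranded RNA, was chosen for mention after its values were seen: it ranged from 18.9 to 36.7 CPM in ctrl estrus and from 9.40 to 17.1 CPM in FL1 estrus, without overlap, with a log2 fold change of -0.84 ± 0.22 (SE, edgeR adjusted p = 0.0617). In diestrus Ifih1 ran from 14.8 to 33.0 CPM in ctrl and from 10.7 to 16.7 CPM in FL1, at -0.74 ± 0.21 (SE, edgeR adjusted p = 0.0586). Both values were short of the threshold in edgeR, while DESeq2 called Ifih1 in both stages. With all genes of at least 1 count, edgeR called Ifih1 in both stages too. It also passed in estrus in 1 fit of all 20 libraries, and in diestrus with a replicate block or without ctrl replicate 1 or 4. The other sensors, Dhx58 (LGP2), the Z-form nucleic acid sensor Zbp1 and the RNA-activated kinase Eif2ak2 (PKR), had log2 fold changes of -0.82, 0.10 and -0.42 in estrus, none past the threshold in edgeR or DESeq2.

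Trim25, at chr11:88999376-89020293 on the plus strand, encodes a ubiquitin ligase that activates RIG-I. Its estrus values in ctrl were 132, 144, 150.2, 128 and 207 CPM, and in FL1 80.6, 76.2, 76.7, 80.3 and 79.5 CPM. The FL1 ovaries lay within 4.5 CPM of each other and far below all ctrl ovaries, whose highest was again replicate 5. The difference was -0.95 ± 0.13 on the log2 scale (SE, edgeR adjusted p = 0.000777), the lowest p among the members, and the call held in all 10 fits that left out 1 library, at -1.01 to -0.81. In diestrus Trim25 was at 95.5, 95.1, 135, 80.2 and 116 CPM in ctrl and at 71.0, 76.2, 87.5, 88.6 and 84.4 CPM in FL1. Those groups overlapped, and the log2 fold change was -0.36 ± 0.13 (SE, edgeR adjusted p = 0.143).

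In edgeR the rest of the ISG15 and ubiquitin group had no further call, while DESeq2 also called Isg15 and Dtx3l in estrus. In estrus 6 of its 7 genes were below 0, against 50.9% of all genes, with a median of -0.61. An unadjusted p of at most 0.05 was reached by 5 of the 7, against 15.9% of all genes. Isg15, a ubiquitin-like protein attached to other proteins, was at 7.78 to 21.3 CPM in ctrl estrus and 3.67 to 12 CPM in FL1 estrus, and at 4.93 to 21.3 and 2.41 to 7.85 CPM in diestrus. Its log2 fold change was -1.08 in each stage, with SE 0.34 and 0.39 and edgeR adjusted p = 0.131 and 0.151. Usp18, which removes Isg15 from proteins and damps the interferon receptor, had -1.26 ± 0.56 and -1.32 ± 0.46 (SE, edgeR adjusted p = 0.286 and 0.143). Dtx3l, a ubiquitin ligase that works with Parp9 of the ADP-ribosyltransferase family, was at 29.9 to 42.9 CPM in ctrl estrus and 22.4 to 29.7 CPM in FL1 estrus, a difference of -0.51 ± 0.13 (SE, edgeR adjusted p = 0.0681). Trim21, the cytosolic antibody receptor, was the exception in estrus at 0.16 ± 0.36 (SE, edgeR adjusted p = 0.878). These values of Isg15, Usp18, Dtx3l and Trim21 were chosen after they were seen.

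Among the antiviral effectors, Oasl2, at chr5:114896936-114912234 on the plus strand, belongs to the oligoadenylate synthetase family. Ctrl ovaries in estrus had 28.7, 25.7, 34.3, 29.5 and 43.4 CPM and FL1 ovaries 21.3, 19, 24.8, 16.2 and 19.7 CPM. The highest FL1 value was just under the lowest ctrl value. The log2 fold change was -0.67 ± 0.17 (SE, edgeR adjusted p = 0.0485), close to the threshold, and only the fits without ctrl replicate 2 or FL1 replicate 3 kept the call. Without ctrl replicate 1, 3, 4 or 5 or FL1 replicate 1, 2, 4 or 5 the edgeR adjusted p was 0.0612 to 0.127, and it was 0.0569 with genes of at least 10 counts in every library and 0.131 in 1 fit of all 20 libraries. In diestrus Oasl2 was at 21.6, 39, 46.4, 15.3 and 19.7 CPM in ctrl and at 18.6, 15.3, 14.3, 11 and 21.0 CPM in FL1. Ctrl replicates 2 and 3 were far above the others, the groups overlapped, and the log2 fold change was -0.83 ± 0.28 (SE, edgeR adjusted p = 0.125).

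The remaining effectors tested, among them the RNA-binding Ifit1, Ifit2 and Ifit3, the antiviral enzyme Rsad2 (viperin) and the mitochondrial nucleotide kinase Cmpk2, had log2 fold changes of -0.84 to 0.50 in estrus. Of the 10 effectors tested in estrus, 8 were below 0, against 50.9% of all genes. In diestrus 9 of 11 were below 0, against 51.8% of all genes, over a range from -1.02 to 0.72. The highest value in each stage belonged to a different gene, Isg20 in estrus and Ifit2 in diestrus. Isg20, at chr7:78913424-78920396 on the plus strand, encodes an RNA exonuclease. It had 12.6, 10.8, 10.3, 12.2 and 10.2 CPM in ctrl estrus and 20.8, 15.9, 15.8, 11.5 and 15.3 CPM in FL1 estrus. In diestrus it had 7.26, 22.6, 8.26, 15.6 and 15.4 CPM in ctrl and 4.15, 9.68, 9.60, 3.68 and 6.83 CPM in FL1. The FL1 mean was above that of ctrl in estrus and below it in diestrus, and the groups overlapped in both, at 0.50 ± 0.18 (SE, edgeR adjusted p = 0.181) and -1.02 ± 0.34 (SE, edgeR adjusted p = 0.126).

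**Figure D3:**
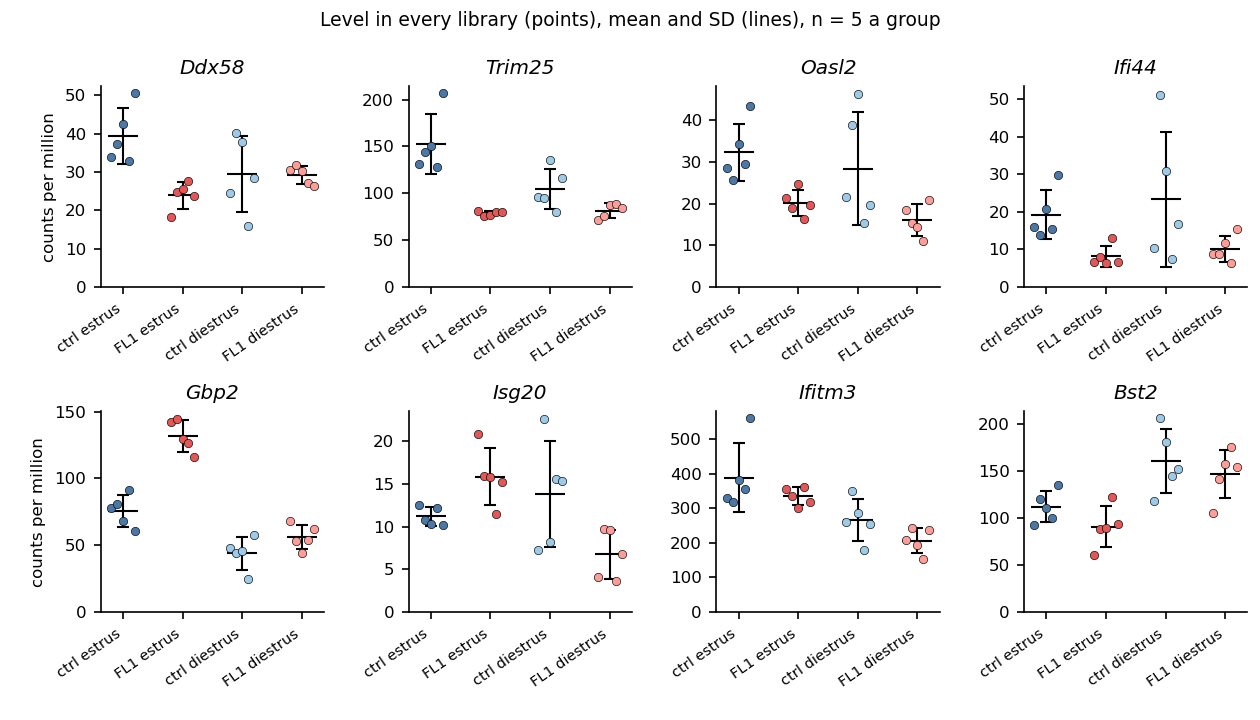
CPM of the 8 members called in any comparison, on a linear axis from 0, with 1 point per ovary in replicate order, the mean (wide mark) and SD (bars), n = 5 in each of the 4 groups. Trim25 in FL1 estrus sits between 76.2 and 80.6 CPM, under all ctrl estrus ovaries, and Gbp2 in FL1 estrus sits between 116 and 144 CPM, above all other groups.

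Ifi44, at chr3:151730922-151749960 on the minus strand, is an interferon-induced gene widely used as a marker of the response. In estrus it was at 15.9, 13.7, 20.9, 15.5 and 29.9 CPM in ctrl and at 6.75, 7.95, 6.29, 13.1 and 6.63 CPM in FL1. FL1 replicate 4 reached almost to the lowest ctrl ovary, and the other 4 FL1 ovaries were under 8 CPM. The difference was -1.24 ± 0.26 on the log2 scale (SE, edgeR adjusted p = 0.0241). It missed the threshold without FL1 replicate 1, 2, 3 or 5, at edgeR adjusted p = 0.0660, 0.0647, 0.0587 and 0.0683, and in 1 fit of all 20 libraries, at 0.0835. It was -1.03 (edgeR adjusted p = 0.0280) without ctrl replicate 5. In diestrus ctrl ovaries were at 10.5, 51.0, 30.8, 7.56 and 16.8 CPM and FL1 ovaries at 8.73, 8.76, 11.6, 6.51 and 15.5 CPM. Replicates 2 and 3 again set the ctrl group apart, and the log2 fold change of -1.20 ± 0.43 did not pass (SE, edgeR adjusted p = 0.151). Without ctrl diestrus replicate 2 it was -0.68. The others of this group, Rtp4, Xaf1 and Ifi35, were below 0 in both stages, at -0.87, -0.76 and -0.09 in estrus and -0.87, -0.67 and -0.02 in diestrus.

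Gbp2, at chr3:142620602-142638008 on the plus strand, went the other way. It encodes a guanylate-binding protein, a large GTPase that attacks the membranes around intracellular microbes and is strongly induced by interferon gamma. In estrus the ctrl ovaries were at 78, 80.8, 68.2, 91.3 and 60.3 CPM and the FL1 ovaries at 142, 144, 129, 126 and 116 CPM. All FL1 values were above all ctrl values, and the difference was 0.80 ± 0.12 on the log2 scale (SE, edgeR adjusted p = 0.00174), called in all 10 fits that left out 1 library. Its neighbours Gbp3 and Gbp7 had -0.37 ± 0.22 and -0.35 ± 0.16 (SE, edgeR adjusted p = 0.455 and 0.302). In diestrus Gbp2 was at 47.9, 44.2, 45.5, 24.3 and 57.8 CPM in ctrl and at 68.0, 53.1, 44.1, 53.8 and 62.3 CPM in FL1. The groups overlapped there, at 0.35 ± 0.18 (SE, edgeR adjusted p = 0.336).

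In edgeR no transcription factor passed in a line comparison. Stat2 and Irf9, partners in the complex that binds the ISRE, had log2 fold changes of -0.55 ± 0.17 and -0.52 ± 0.17 in estrus (SE, edgeR adjusted p = 0.128 and 0.142) and of -0.37 ± 0.21 and -0.44 ± 0.17 in diestrus (SE, edgeR adjusted p = 0.379 and 0.179). Stat2 did not overlap in estrus, at 20.1 to 35 CPM in ctrl and 15.3 to 17.9 CPM in FL1. Irf7, which amplifies the response, was at 7.64 to 22.7 CPM in ctrl diestrus and 1.84 to 7.98 CPM in FL1 diestrus, at -1.25 ± 0.37 (SE, edgeR adjusted p = 0.0744), and at -0.43 ± 0.30 in estrus (SE, edgeR adjusted p = 0.529). In diestrus DESeq2 called Irf7, as did edgeR without ctrl replicate 1, with a replicate block and with all genes of at least 1 count. Irf1, Irf3 and Irf8 lay between -0.03 and 0.19 in both stages. These values were chosen after they were seen.

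Over the cycle, Gbp2 was higher in estrus than in diestrus in both lines. In ctrl edgeR called no other member, 1 of 36 against 2.85% of 13334 genes, with a log2 fold change, estrus minus diestrus, of 0.78 ± 0.19 (SE, edgeR adjusted p = 0.0439). DESeq2 also called Bst2 and Trim25, 3 of 38 against 5.06% of genes, and limma-voom also Bst2, 2 of 36 against 4.9%. In 1 fit of all 20 libraries Ifitm3 and Trim25 were called as well, 3 of 37 against 6.42%. The ctrl groups of Gbp2 did not overlap, as was so for 4.52% of genes. The edgeR call of Gbp2 was kept only without ctrl estrus replicate 5 or ctrl diestrus replicate 5, and lost without ctrl estrus replicate 1, 2, 3 or 4 or ctrl diestrus replicate 1, 2, 3 or 4, at edgeR adjusted p = 0.0522 to 0.117. Beside it, 2 of 4 theca and stroma markers were higher in ctrl estrus with 1 lower, 1 of 8 macrophage markers was higher and 1 of 6 luteal markers lower; their part in the result was not tested.

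In FL1, 4 of 35 members differed between stages, against 15.9% of 13350 genes (7.42% higher in estrus and 8.49% lower), so the members' share was not above that of all genes. Gbp2 rose in estrus by 1.22 ± 0.11 on the log2 scale (SE, edgeR adjusted p = 1.72e-06) and Isg20 by 1.22 ± 0.26 (SE, edgeR adjusted p = 0.00408), each without overlap between the stages. Ifitm3, at chr7:141009586-141010770 on the minus strand, was at 355, 336, 300.1, 363 and 319 CPM in FL1 estrus and at 208, 242, 193, 153 and 238 CPM in FL1 diestrus. Its stages did not overlap either, at 0.69 ± 0.11 (SE, edgeR adjusted p = 0.00043). Non-overlap with a higher estrus level was seen in these 3 members, against 5.63% of genes.

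Bst2, at chr8:71534255-71537456 on the minus strand, moved the opposite way. FL1 ovaries had 60.5, 88.2, 88.9, 122 and 93.5 CPM in estrus and 106, 142, 157, 175 and 154 CPM in diestrus, with 1 estrus ovary, replicate 4, inside the diestrus range. The log2 fold change was -0.69 ± 0.15 (SE, edgeR adjusted p = 0.00535). All 4 of these calls held in each fit without 1 library. In the same comparison 5 of 6 luteal, 2 of 6 granulosa, 3 of 4 endothelial and 4 of 5 red blood cell markers were lower in estrus. Higher were 1 of 6 oocyte markers and 3 of 4 theca and stroma markers, with 1 theca and stroma marker lower. Of all genes, 8.49% were lower in estrus and 7.42% higher. The part of these markers in the result was not tested.

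The ctrl ovaries gave like directions for Bst2 and Ifitm3, without a call in edgeR. Bst2 had 92.8, 120.5, 110.5, 100.03 and 135 CPM in ctrl estrus and 118, 206, 180.3, 145 and 152 CPM in ctrl diestrus, at -0.52 ± 0.15 (SE, edgeR adjusted p = 0.0907), and -0.60 (edgeR adjusted p = 0.0443) without ctrl estrus replicate 5 or -0.61 (edgeR adjusted p = 0.0368) without ctrl diestrus replicate 1. Ifitm3 had 328, 318, 380.4, 357 and 559.9 CPM in ctrl estrus, where replicate 5 was far above the rest, and 259, 349, 286, 181 and 255.7 CPM in ctrl diestrus, at 0.54 ± 0.19 (SE, edgeR adjusted p = 0.148), and 0.37 (edgeR adjusted p = 0.215) without that ovary. Between the lines, the log2 fold change of Bst2 was -0.30 in estrus and -0.13 in diestrus, and that of Ifitm3 -0.22 and -0.37, with no call. Without ctrl estrus replicate 5 the estrus value of Ifitm3 was -0.045.

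Whether the line difference depended on the stage was tested as an interaction over the 20 libraries. No member of 37 passed in edgeR, against 0.0565% of 14154 genes, DESeq2 called 1 (Isg20), against 0.953% of genes, and limma-voom 0, against 0.219%. At an unadjusted p of at most 0.05 there were 3 members, against 11.7% of genes. The difference of Isg20 between FL1 and ctrl was 1.52 ± 0.40 higher in estrus than in diestrus on the log2 scale (SE, edgeR adjusted p = 0.129). For Trim25 it was -0.59 ± 0.18 (SE, edgeR adjusted p = 0.197) and for Ddx58 -0.70 ± 0.26 (SE, edgeR adjusted p = 0.278). The calls of Trim25 and Ddx58 in estrus are thus not shown to differ from their values in diestrus.

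Single ovaries carried the high values of many members at once. Of the 37 members with enough counts over the 20 libraries, 22 had their highest value in ctrl estrus in replicate 5, which was also the highest for 29.3% of all 14154 genes. In FL1 estrus replicate 4 was the highest for 23 members, against 16.5% of genes. Replicate 2 led for 18 members in ctrl diestrus and replicate 3 for 14, against 16.3% and 19.6%, and both took the top 2 places of their group for 24 of the 37 members, against 10.5% of genes. Replicate 4 of ctrl diestrus was the lowest for 21 members, against 19.7%. In FL1 diestrus the leading ovary, replicate 5, was the highest for 13 members, against 20.1%. These counts are a description of ovaries, since members of 1 library share its RNA.

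**Figure D4:**
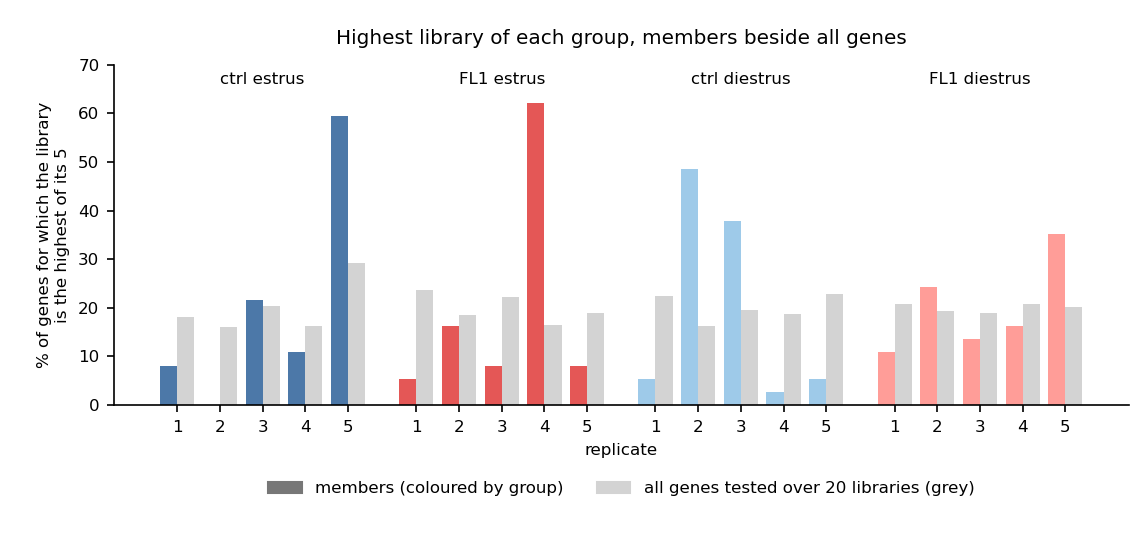
Share of genes, in percent, for which each library was the highest of its 5, for the 37 members (coloured bars) beside all 14154 genes (grey bars), by group and replicate. The tall bars are ctrl estrus replicate 5, FL1 estrus replicate 4 and ctrl diestrus replicates 2 and 3.

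The spread between ovaries of a group was set beside that of all genes. The median SD of log2 CPM over the 37 members was 0.36 in ctrl estrus, 0.37 in FL1 estrus, 0.53 in ctrl diestrus and 0.35 in FL1 diestrus, against 0.31, 0.25, 0.27 and 0.23 over all genes. The widest group was ctrl diestrus, where Ifi44 ran from 7.56 to 51.0 CPM and Usp18 from 1.97 to 15.5 CPM. The SD was larger in ctrl than in FL1 for 28 of the 37 members in diestrus, against 58.8% of genes, and for 19 of 37 in estrus, against 64.9%. The members were not matched to other genes on level, and the part of counting error in these SDs was not tested.

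**Figure D5:**
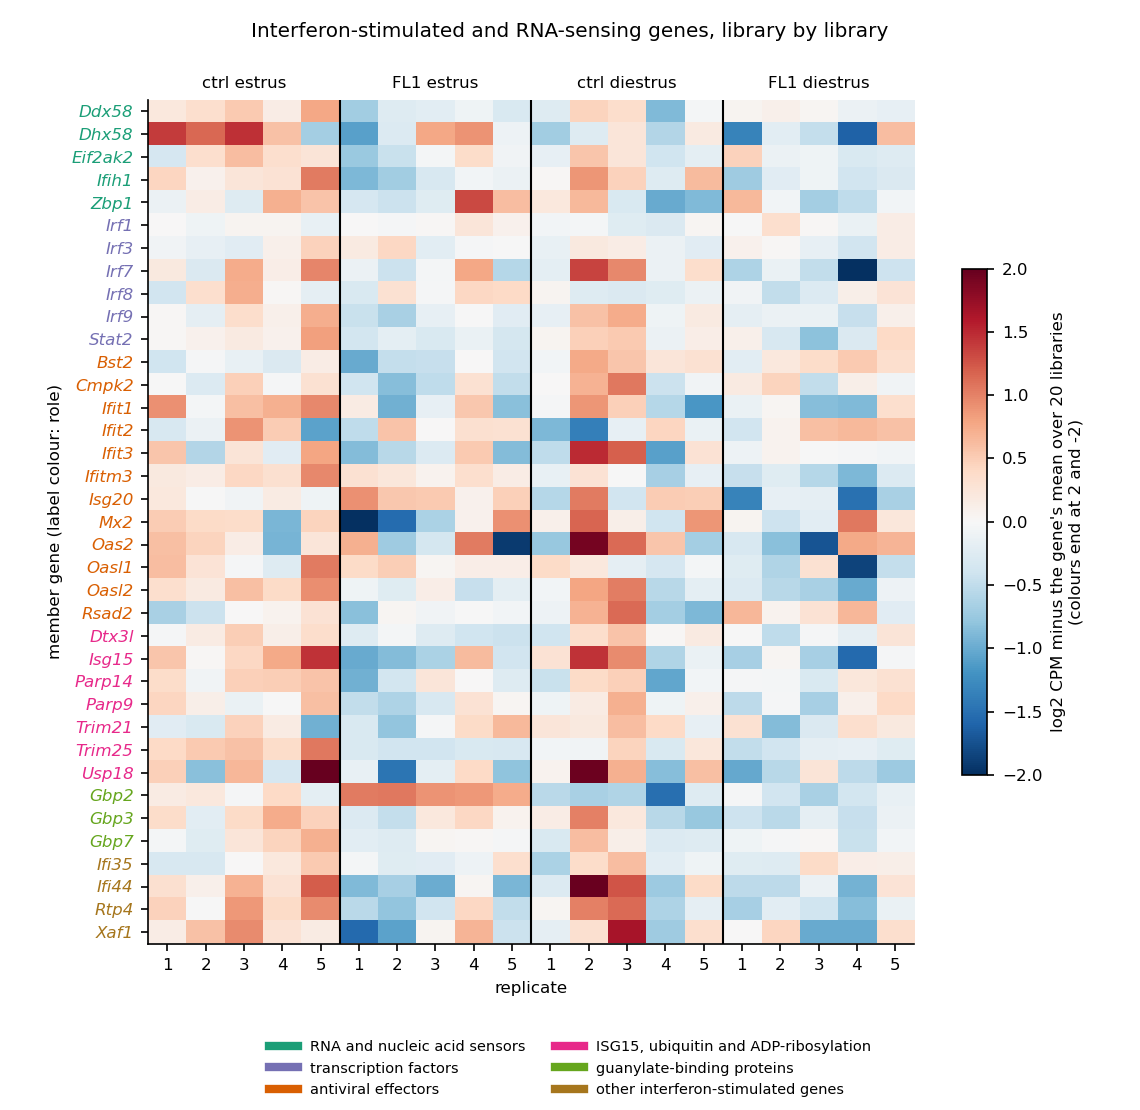
Log2 CPM of the 37 members in each of the 20 libraries minus the gene's mean over all libraries (colour, red above and blue below, ending at 2 and -2), with genes in rows by role and replicates of the 4 groups in columns. Red columns stand at ctrl estrus replicate 5 and at ctrl diestrus replicates 2 and 3, and the Gbp2 row is red across FL1 estrus.

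Other genes of the pathway were read from fixed lists. Of 16 interferon genes, 11 had no count in any library, and the rest had 1 to 54 counts in all, with Ifnl3 the highest, so none could be tested in edgeR. The receptors and JAK-STAT genes, all 15 of them tested, gave no call in either line comparison by edgeR, DESeq2 or limma-voom. At an unadjusted p of at most 0.05 there were 3 in estrus and 6 in diestrus, against 2121 of 13374 and 2351 of 13259 genes. The medians of the list were 0.04 and 0.03.

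Among the sensing adaptors and kinases, 0 of 20 passed in estrus by edgeR (against 2.33% of all genes), 0 by DESeq2 (3.97%) and 1 by limma-voom (3.21%). At an unadjusted p of at most 0.05 there were 7, against 15.9% of all genes. In diestrus Samhd1, which breaks down deoxynucleotides, was higher in FL1, at 37.8 to 55 CPM in ctrl and 67.4 to 78 CPM in FL1, a log2 fold change of 0.71 ± 0.11 (SE, edgeR adjusted p = 0.00153). The groups did not overlap, and its direction was opposite to that of most members.

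Of the other interferon-stimulated genes, 37 of 51 were below 0 in estrus and 38 of 49 in diestrus, with medians of -0.21 and -0.15. Of all genes, 50.9% and 51.8% were below 0. In edgeR 1 of 51 passed in estrus and 2 of 49 in diestrus, all lower in FL1, against 2.33% and 4.11% of all genes. DESeq2 called 6 of 58 and 8 of 59, against 3.97% and 5.33% of all genes. In limma-voom 2 and 3 passed, against 3.21% and 4.36%. Trim30a, a ubiquitin ligase of the Trim family, passed in estrus, at 23.7 to 40.6 CPM in ctrl and 7.80 to 21.4 CPM in FL1 (log2 fold change -1.28 ± 0.25 (SE), edgeR adjusted p = 0.0160). It shares its transcript end with Trim30d, and with the counts of both added up the value was -1.68 (edgeR adjusted p = 0.0123), an alternative chosen after seeing the data. In diestrus Herc6, the ligase that attaches Isg15 in mice, was at 6.89 to 18.5 CPM in ctrl and 2.55 to 4.00 CPM in FL1, at -1.91 ± 0.28 (SE, edgeR adjusted p = 0.00153). Nmi, a partner of Ifi35, was at 18.3 to 21.8 CPM in ctrl and 11.3 to 15.7 CPM in FL1, at -0.55 ± 0.13 (SE, edgeR adjusted p = 0.0269), and missed the threshold without ctrl diestrus replicate 2 or 3 or FL1 diestrus replicate 1, 2, 3 or 5, at up to 0.0714.

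Between the stages in ctrl, 0 of the 85 pathway genes tested passed in edgeR, against 2.85% of all genes. By DESeq2 4 passed, against 5.06%, and by limma-voom 0, against 4.9%. At an unadjusted p of at most 0.05 there were 12, against 2052 of all 13334 genes. In FL1, 11 of 85 passed, against 15.9% of all genes, so this share was not above that of all genes either. Tmem173 (STING), the adaptor of DNA sensing, was higher in estrus at 15.2 ± 2.28 against 8.12 ± 1.66 CPM (SD, n = 5; edgeR adjusted p = 0.00297). The phosphatase Ptpn6, which damps cytokine signals, was lower at 6.65 ± 1.78 against 12.8 ± 4.08 CPM (SD, n = 5; edgeR adjusted p = 0.0159) and missed the threshold without FL1 diestrus replicate 5 (0.0513). Of the 9 called among the other interferon-stimulated genes, Ifi30, Ly6e, Ifi27l2a and the immunoproteasome subunit Psmb8 were higher in estrus, at 0.64, 0.56, 0.86 and 0.57 on the log2 scale, in all fits without 1 library. Ifitm2 was higher at 0.25 and Slfn5 lower at -0.73. Ifitm2 lost its call without FL1 diestrus replicate 1, 2 or 3 or FL1 estrus replicate 1 or 4, at up to 0.0767, and Slfn5 without FL1 diestrus replicate 1, 2 or 5 or FL1 estrus replicate 1 or 3, at up to 0.0725 (edgeR adjusted p).

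Markers of other cells were read beside the line comparisons. In estrus 0 of 43 tested cell type markers passed in edgeR, against 2.33% of all genes. DESeq2 called 3 of 58, against 3.97%, and limma-voom 0, against 3.21%. At an unadjusted p of at most 0.05 there were 10, against 15.9% of all genes. Of 8 macrophage and monocyte markers tested, 6 were below 0, against 50.9% of all genes, with a median of -0.34. An unadjusted p of at most 0.05 was reached by 3 of them, Csf1r at -0.61, C1qa at -0.51 and Adgre1 at -0.42. All 4 endothelial markers were below 0, with a median of -0.36 and 2 at an unadjusted p of at most 0.05. Above 0 were 5 of 6 granulosa (median 0.40) and 6 of 6 oocyte markers (0.20). So were 5 of 5 red blood cell (0.29) and 2 of 2 neutrophil markers (0.73). The 1 T and NK cell and the 1 fat marker tested were also above 0. Luteal markers were below 0 in 3 of 6 and theca and stroma markers in 3 of 4. The part of any of these lists in the members' values was not tested. Summed over 9 genes, macrophage and monocyte markers ran from 167 to 293 CPM in ctrl estrus, 164 to 226 in FL1 estrus, 127 to 206 in ctrl diestrus and 154 to 191 in FL1 diestrus. The sums over 8 T and NK cell markers were at most 10.8 CPM, over 6 dendritic cell markers at most 5.16 CPM, over 4 B cell markers at most 3.90 CPM and over 4 neutrophil markers at most 7.45 CPM. Of the 4 B cell markers only Cd79a was at 0 in all 5 ovaries of a group, in 3 of the 4 groups. Of the 4 neutrophil markers Ly6g was at 0 in all 4 groups and Mpo in both diestrus groups. The other markers of both lists had counts in every group. In diestrus 4 of 43 passed in edgeR, all higher in FL1: Foxl2 of 6 granulosa, Lhcgr of 6 luteal, Cd68 of 8 macrophage and Hba-a2 of 5 red blood cell markers. Of all 13259 genes 4.11% passed, 304 genes higher and 241 lower. DESeq2 called 6 of 63, against 5.33%, and limma-voom 2, against 4.36%. Of those macrophage markers 5 were below 0, with a median of -0.07. Below 0 were also 6 of 6 oocyte, 4 of 4 theca and stroma and 1 of 1 fat markers, against 51.8% of all genes. Above 0 were 5 of 6 granulosa, 4 of 6 luteal, 3 of 4 endothelial, 5 of 5 red blood cell, 2 of 2 T and NK cell and 1 of 1 neutrophil markers. The part of these lists in the members' values was not tested.

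Members with and without an ISRE core are set side by side as a description. Of the 15 with the core, 14 were tested in estrus and 12 were below 0, with a median of -0.39. Of the 15 with a window and no core, 10 of 15 were below 0, with a median of -0.43. In diestrus the counts were 12 of 14 and 12 of 15, with medians of -0.31 and -0.36. Of all genes, 50.9% were below 0 in estrus and 51.8% in diestrus.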

How the data were processed

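RNA of 20 ovaries was made into QuantSeq 3' forward libraries by the authors and sequenced on an Illumina HiSeq, and trimmed reads were aligned with STAR to GRCm38 with an Ensembl annotation. For each library the authors deposited 1 table of raw counts over 54838 genes, not normalized. The counting tool and its strand setting are not given in the sources used here, and the submitters' processing notes also name Cuffdiff. Groups came from the titles, stage and genotype labels. The source name reads FL1 for every library and was not used. Libraries held 5991223 to 10352718 counts. All 39 genes were matched through the GENCODE annotation of GRCm38, in which positions are given.

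From the counts, edgeR 4.0.16 (R 4.3.3) fitted each comparison over all genes that passed filterByExpr with a minimum count of 10, with TMM factors and quasi-likelihood F tests, and genes were called where the p adjusted by Benjamini-Hochberg was 0.05 or less. The study used DESeq2, tried here as an alternative (1.42.0) beside limma-voom with sample weights (limma 3.58.1), other size factors, filters of at least 1 count in total and of at least 10 in every library, 1 fit of 20 libraries, a replicate block and leaving out each library. The log2 CPM has a prior count of 2. Single values were compared by exact permutation over all splits of 5 against 5, two-sided. The edgeR, DESeq2 and limma-voom fits of each comparison were also run on simulated data, and the other alternatives were not. No pair of libraries within a group agreed within sampling noise, by chi-square per gene of 6.03 to 42.4 over 40 pairs. The floors of 3 counts cover counting error only, while each SE and SD also holds the spread between ovaries.

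The members, roles, pathway lists and markers were chosen with earlier results of these data known. Values in every library are given for members called in any comparison, and for pathway lists the called genes are named, at most 6 a list by adjusted p. A called result in the list of sensing adaptors and kinases is not reported here. In the list of sensing adaptors and kinases, 23 of 25 names were in the files, 2 being synonyms of listed genes. The promoter windows of 30 members are from the RefSeq table of GRCm38.p6.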

Additional observations from a re-analysis of the deposited data

Results flagged for a closer look

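Among 32 groups of 5 libraries tested, those of the 8 members called in any comparison, 3 held a library whose gap to its nearest neighbour was over 0.71 of the group's range. Chance flags about 1 in 20 groups. Trim25 in ctrl estrus replicate 5 was at 207 CPM, where the next ovary was at 150.2 and the lowest at 128 CPM. Ifitm3 in the same ovary was at 559.9 CPM, where the next was at 380.4 and the lowest at 318 CPM. Ifi44 in FL1 estrus replicate 4 was at 13.1 CPM, where the next was at 7.95 and the lowest at 6.29 CPM. The calls of Trim25 and Ifi44 between lines in estrus held without these ovaries, at log2 fold changes of -0.81 and -1.47.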

How the results depend on the processing

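Between lines in estrus, 5 members were called, 9 by DESeq2, 7 with all genes of at least 1 count, and 4 with at least 10 counts in every library (Oasl2 lost) or in 1 fit of all 20 libraries (Ifi44 and Oasl2 lost). The shares of all genes called were 2.33%, 3.97%, 1.84%, 1.96% and 3.75%, in that order. In diestrus 0 members were called, but 3 by DESeq2 and 7 with all genes of at least 1 count (Ifi44, Ifih1, Irf7, Isg15, Isg20, Oasl2 and Rtp4). The shares of all genes were 4.11%, 5.33% and 3.29%. Between stages in ctrl 1 member was called, but 3 by DESeq2, 2 by limma-voom and 3 in 1 fit of all 20 libraries. The shares of all genes were 2.85%, 5.06%, 4.9% and 6.42%. In FL1 the same 4 members (Gbp2, Isg20, Ifitm3 and Bst2) were called under every alternative run, against 8.93% to 17.4% of all genes. For the interaction 0 members were called, against 0.0565% of all genes, and 1 by DESeq2, against 0.953%. The cause was not tested. Leaving out 1 library gave 2 to 6 members in estrus (2 without FL1 replicate 1, 2 or 5, and 3 without ctrl replicate 3), 0 to 2 in diestrus (2 without ctrl replicate 1 or 4), 0 to 3 between stages in ctrl (3 without ctrl estrus replicate 5), 4 to 4 in FL1 and 0 to 0 for the interaction. In these fits 1.28% to 3.06% of all genes were called in estrus and 2.59% to 4.43% in diestrus. Between stages the shares were 1.3% to 3.81% in ctrl and 11.7% to 17.2% in FL1, and for the interaction 0% to 0.104%. Ddx58 in diestrus, near 0, turned sign under limma-voom (0.013) and, without 1 library, ran from -0.16 to 0.13.

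Replicate numbers name different animals. Same-numbered libraries correlated at -0.11 to 0.14 in their deviations, over 0.1 in at most 1 of 5 pairs, so they were not taken as paired. With the replicate block, 3 members were called in estrus (Ddx58, Gbp2 and Trim25), 2 in diestrus (Ifih1 and Irf7), 0 between stages in ctrl (Gbp2 at edgeR adjusted p = 0.115), 4 in FL1 and 0 for the interaction, and Ddx58 in diestrus was at 0.045. The shares of all genes called were 1.72%, 3.76%, 1.94%, 15.1% and 0.0848%, in that order of comparisons.

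Over all genes, 311 were called in estrus, against 670 by DESeq2, 477 with at least 1 count and 531 in 1 fit of 20 libraries. In diestrus there were 545, against 891 by DESeq2 and 846 with at least 1 count. Between stages in ctrl there were 380, against 771 by DESeq2, 653 by limma-voom and 909 in 1 fit. The interaction called 8, against 148 by DESeq2, 31 by limma-voom and 17 with at least 1 count. Without 1 library the counts were 175 to 418 in estrus, 349 to 594 in diestrus, 176 to 516 in ctrl and 0 to 15 for the interaction. Adding up near-identical copies could not be applied to the 8 named members, which have none. Where a gene had few counts, as Mx1, Mx2, Oas1a and Oas2, depth limits what could be seen. With 5 ovaries in a group, p-values set a difference between groups against the spread between these animals.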
